A study of Mus musculus with 2 samples.

Results

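The alpha and beta tubulin isotypes were followed in mouse epidermis in which the transcription factor SOX11 had been switched on for 12 h. Probes were taken by gene name from the array files, and 13 probes carried 9 of the 10 member names. The remaining member, Tubb4, is listed on the array as Tubb4a, for which RefSeq gives Tubb4 as a synonym, and with it the set held 14 probes of 10 genes among 55676 probes with 34820 names. The neuronal isotypes were Tubb2b, Tubb3 and Tuba1a with 5 probes, and the housekeeping isotypes were Tubb2a, Tubb5, Tubb6, Tubb4a, Tuba1b, Tuba1c and Tuba4a with 9 probes. The split follows this naming, although Tubb2a and Tubb4a are known to be abundant in nervous tissue as well.

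The study used 2 arrays. On each, dorsal epidermis of a K14-rtTA;TRE-Sox11-FLAG pup was set against that of a littermate with K14-rtTA alone, 1 animal per channel, all in the FVB/N strain at an age labelled P4.5. Both pups of a pair received doxycycline (Dox) for 12 h, so the controls shared the drug and the rtTA transgene and lacked the inducible Sox11. The keratin 14 promoter drives rtTA in basal keratinocytes, whereas the RNA came from whole epidermal sheets, which also hold suprabasal keratinocytes, melanocytes, immune cells and Merkel cells. In such bulk RNA, fewer cells of a type and less RNA per cell cannot be told apart. Per the labels, control RNA carried Cy3 and SOX11-induced RNA carried Cy5 on both arrays, so that a dye effect on a single probe and the genotype cannot be told apart, although a colour swap is mentioned in the study's methods. The arrays are called pair 1 and pair 2, and a log2 ratio is SOX11-induced over control.

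Microtubules are hollow polymers of dimers that each hold an alpha and a beta tubulin. Mammals encode several isotypes of either kind, which differ mostly in their acidic tails and in the tissues that use them. TUBB2B, TUBB3 and TUBA1A are known for the microtubules of newborn and migrating neurons, while TUBB5, TUBA1B and TUBA1C serve dividing cells in general. Cells also adjust the decay of tubulin messages to the amount of free dimer.

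The isotypes resemble each other closely in their coding regions and differ mostly near the ends of their messages, so the probe letters decide what a signal stands for. The lines give the first 30 bases of probes for the isotypes with the largest ratios and for Tubb2a, the genomic neighbour of Tubb2b, with mm9 positions and strands as the array files list them. Capitals mark nothing in these lines.
Tubb2b A, chr13:34219092-34219151 (minus strand): acttgagatctttctgaactcctgttgtaa
Tubb2b B, chr13:34219061-34219120 (minus strand): ggctaaaatcacataaacctttgtgtccta
Tubb3, chr8:125945850-125945909 (plus strand): ggttgtgtttatattcggggggaggggtat
Tuba1a A, listed at chr12:52234336-52234395 (minus strand): agacccaagctgcccacttcactgatgggt
Tuba1a B, listed at chr15:98780278-98780293 (minus strand): ttcatacagttactgacttatgaatgattg
Tubb2a, listed at chr13:34166116-34166145 (minus strand): cttagtgaacttctgttgtcctccagcatt

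All member probes are 60 bases long, so the listed positions of Tuba1a B (16 bases) and Tubb2a (30 bases) cover only a piece of the probe. Exon and UTR annotation on mm9 was not used here. Tuba1a A is listed on chromosome 12 although RefSeq places Tuba1a on chromosome 15, and its position was kept as listed. The Tubb2b probes overlap in 29 bases (ggctaaaatcacataaacctttgtgtcct), so they are not independent measurements. Among the other probes tested, runs of 20 or more bases were shared only by the Tuba1c probes with each other and by Tuba1a A with an unnamed probe, described further on.

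The Tuba1c probes are near copies: over 49 aligned bases 48 matched, and the single substitution was A24G, counted from 1 at the 5′ end of the windows shown, from the probe listed on chromosome 12 to that on chromosome 15. The windows are shown with the differing base in capitals.
Tuba1c B, listed at chr12:4790369-4790428 (plus strand): aaactgtcaataaaggtgtttccAttgtaa
Tuba1c A, chr15:98868477-98868536 (plus strand): aaactgtcaataaaggtgtttccGttgtaa

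Of the Tuba1b probes, that further upstream by position and strand, Tuba1b B, is listed at chr15:98762319-98762378 (minus strand), and the first 30 bases of its partner are shown.
Tuba1b A, chr15:98761923-98761982 (minus strand): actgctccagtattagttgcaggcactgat

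Each of the 14 probes was well above background on both arrays in 1 channel or more, and none was saturated. In the control channel 13 of 14 were well above background on both arrays, the exception being Tubb2b B, which was not on either. Over the whole series the share of 59305 spots well above background was 37.5% and 38.7% in the control channels and 40.6% and 42.6% in the SOX11-induced channels. The ratios of the pairs had a correlation of 0.685 over the 21782 probes above background, a description across probes that share their arrays. The keratinocyte markers were above background in 8 of 8 cases. Of the 2 Sox11 probes 0 were above background in any channel, so they give no check of the induction labels.

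Of the 14 tubulin probes, 10 rose at an adjusted p under 0.05 (Benjamini-Hochberg over all probes, limma), where 2.9% of all probes and 6.61% of the probes above background did. None of the 14 fell at that threshold, where 1.35% of all probes did, and 1 of the 14 had a negative ratio in both pairs. The study's methods set a log2 fold change over 1.5, while a figure legend gives a fold change over 1.5. With a mean log2 ratio past 1.5 required as well, 6 tubulin probes were called higher, against 0.365% of all and 0.932% of above-background probes. The 5 neuronal probes made up 5 of these calls and Tubb2a the remaining 1 of 9 housekeeping probes. With the processed signals of the scanner software 0 of the 55676 probes passed the adjusted threshold in limma, the tubulins included, while 892 had a log2 ratio past 1.5 at an unadjusted p under 0.05.

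The median log2 ratio was 2.73 for the neuronal probes (3.10 in pair 1 and 2.38 in pair 2) and 0.67 for the housekeeping probes (0.79 and 0.76). The medians over all probes tested and over those above background were 0.01 and 0.04. With the processed signals the neuronal and housekeeping medians were 2.96 and 0.78, and with median centring in place of loess 3.27 and 1.41, where the probes above background as a whole were centred on 0.49 and 0.57 in pairs 1 and 2. The difference between the group medians was 2.31 in pair 1 and 1.62 in pair 2. The lowest neuronal mean, 2.51 for Tuba1a A, lay above the highest housekeeping mean, 1.68 for Tubb2a. The neuronal medians per pair are the values of Tubb2b B, whose controls were not well above background. With the brightest probe per gene alone, which leaves that probe out, the medians were 2.68 over 3 neuronal genes (3.41 and 2.34) and 0.54 over 7 housekeeping genes (0.79 and 0.60), and their differences 2.62 in pair 1 and 1.74 in pair 2. The groups were named with earlier results of these arrays known, so the gap is given as a description without a test, and with 2 arrays the smallest p of an exact sign-flip test would be 0.5 in any case.

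**Figure D1:**
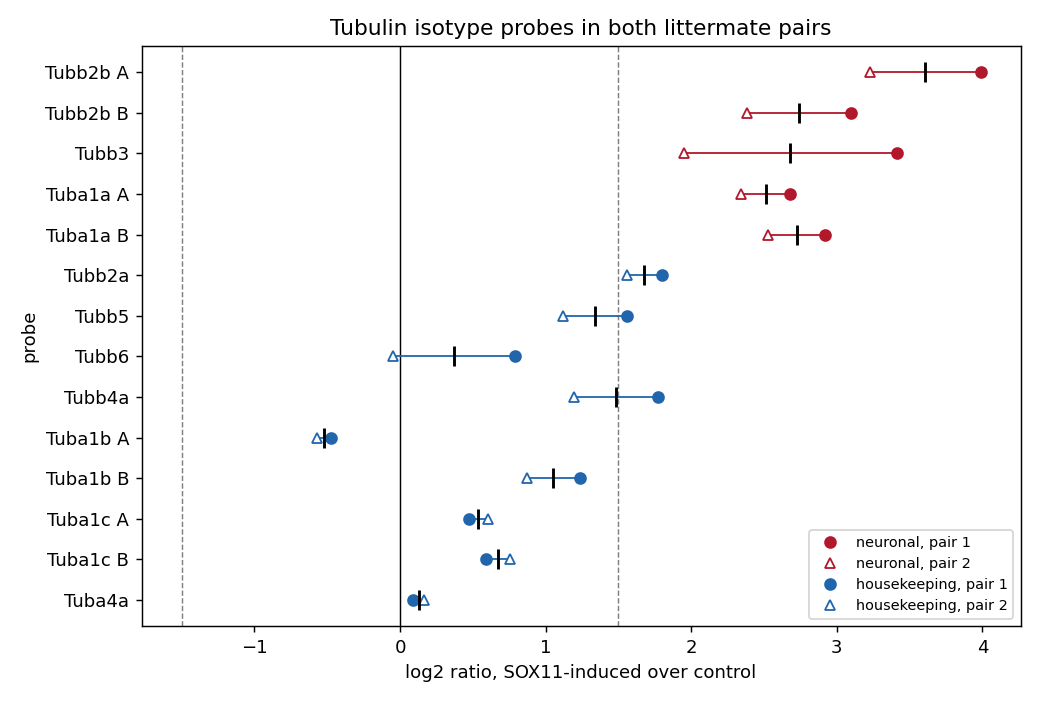
Log2 ratio of SOX11-induced over control epidermis (horizontal axis) for each of the 14 tubulin probes (rows). Filled circles are pair 1, open triangles pair 2, short black bars the mean of the pairs, and dashed lines a log2 ratio of 1.5 in either direction; all 5 neuronal probes (red) lie above 1.5 in both pairs, and Tubb2a is the housekeeping probe (blue) that does so.

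Among the neuronal beta tubulins, Tubb2b, the isotype mutated in some malformations of the cortex, had the largest change. The normalised log2 signal of Tubb2b A was 9.24 in the control and 13.23 in the SOX11-induced pup of pair 1, and 8.97 and 12.20 in pair 2. Before normalisation its spot brightness was 399 against 12613 scanner units in pair 1 and 371 against 7788 in pair 2. The median raw signal of all spots was also higher in the SOX11-induced channel. It was 42.95 against 73.9 in pair 1 and 45.4 against 78.2 in pair 2. At Tubb2b A both SOX11-induced pups were far above both controls, and the controls lay close together. The log2 ratios of 3.99 and 3.23 averaged 3.61 ± 0.535 (SD, n = 2; adjusted p = 5.69e-05), a 12.2-fold change, which ranked 2 of 21782 probes above background.

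Tubb2b B, the overlapping probe, had normalised log2 signals of 6.02 and 9.12 in pair 1 and of 5.81 and 8.19 in pair 2. The log2 ratios of 3.10 and 2.38 averaged 2.74 ± 0.509 (SD, n = 2; adjusted p = 0.000163). Its controls were not well above background, so the size of the change moves with the treatment of the background: the mean was 2.15 with an offset of 50 and 4.33 with the processed signals of the scanner software, where Tubb2b A had 3.53 and 3.80. No fold and no comparison with Tubb2b A is drawn from it.

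Tubb3, the class III beta tubulin used as a marker of neurons, had normalised log2 signals of 7.21 and 10.62 in pair 1 and of 8.04 and 9.99 in pair 2. Both SOX11-induced pups exceeded both controls, but the control of pair 2 was higher than that of pair 1 while its SOX11-induced pup was lower. The log2 ratios were accordingly 3.41 and 1.95, 1.46 apart, with a mean of 2.68 ± 1.03 (SD, n = 2; adjusted p = 0.00118). This was the widest spread between pairs among the 14 probes, at an SD of 1.03 against a median SD of 0.157 over all probes tested.

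Tuba1a, the main alpha tubulin of postmitotic neurons, was measured by probes that share no run of 20 bases. The normalised log2 signals of Tuba1a B were 11.67 in the control and 14.59 in the SOX11-induced pup of pair 1, and 11.41 and 13.94 in pair 2. Tuba1a A had 12.27 and 14.95 in pair 1 and 11.78 and 14.12 in pair 2. Every control was well above background and lay far below either SOX11-induced pup. The mean log2 ratios were 2.73 ± 0.277 (SD, n = 2; adjusted p = 8.98e-05) for B and 2.51 ± 0.238 (SD, n = 2; adjusted p = 9.44e-05) for A, and within an array they differed by 0.24 and 0.19. The unnamed probe that shares 39 bases with Tuba1a A had log2 ratios of 1.07 and 0.88 and a mean of 0.97 ± 0.132 (adjusted p = 0.00899). Its control channels were not well above background, so no comparison with Tuba1a A is drawn.

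**Figure D2:**
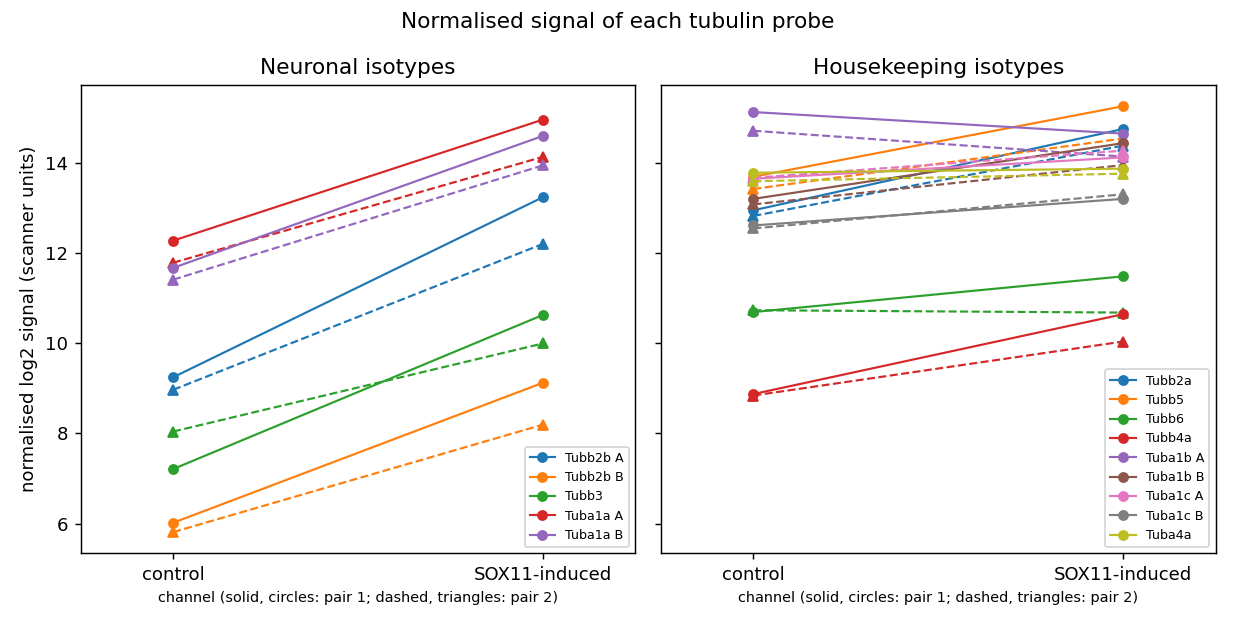
Normalised log2 signal in scanner units (vertical axis) of each probe in the control and the SOX11-induced channel; solid lines with circles join the channels of pair 1 and dashed lines with triangles those of pair 2. Every neuronal probe (left) rose steeply in both pairs, the Tubb3 lines crossing because the pair 2 control was higher (8.04 against 7.21), whereas most housekeeping probes (right) had shallower lines and Tuba1b A sloped downwards.

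Of the housekeeping beta tubulins, Tubb2a stood just inside the 1.5 threshold and Tubb4a just outside it. Tubb2a had normalised log2 signals of 12.94 and 14.74 in pair 1 and of 12.82 and 14.37 in pair 2, and the log2 ratio averaged 1.68 ± 0.174 (SD, n = 2; adjusted p = 0.000575). The pairs agreed closely, with both controls below both SOX11-induced pups. Tubb4a, an isotype of brain and of myelinating oligodendrocytes, had 8.87 and 10.64 in pair 1 and 8.84 and 10.04 in pair 2. Its mean of 1.48 ± 0.405 (SD, n = 2) passed the test (adjusted p = 0.00228) and fell short of the call by its size. Whether the Tubb4a probe, or any other member probe, also binds messages of other isotypes was not tested. Only runs of bases shared between array probes were compared.

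Tubb5, the broadly used beta isotype of dividing cells, had normalised log2 signals of 13.69 and 15.25 in pair 1 and of 13.41 and 14.53 in pair 2. It rose by 1.34 ± 0.313 (SD, n = 2; adjusted p = 0.00273), again without overlap between the channels. Tubb6, a widely expressed isotype, had a normalised log2 signal of 10.69 against 11.48 in pair 1 and of 10.73 against 10.68 in pair 2. Its ratios of 0.79 and -0.05 differed in sign, and the mean of 0.37 ± 0.596 did not pass (adjusted p = 0.337).

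The alpha tubulins Tuba1b and Tuba1c, which most cells express, lie beside Tuba1a on chromosome 15. Tuba1b A had normalised log2 signals of 15.12 in the control and 14.64 in the SOX11-induced pup of pair 1 and of 14.70 and 14.13 in pair 2. The mean log2 ratio was -0.52 ± 0.066 (SD, n = 2; adjusted p = 0.0875), and with median centring in place of loess the sign turned to 0.28. Before normalisation its spot was brighter in the SOX11-induced channel, by a ratio of 1.61 in pair 1 and 1.71 in pair 2. Tuba1b B, the upstream probe, had 13.20 and 14.43 in pair 1 and 13.07 and 13.94 in pair 2, with a mean of 1.05 ± 0.257 (adjusted p = 0.00799). Probes of the same gene thus differed by 1.71 and 1.44 within the arrays, in opposite directions from 0. Whether Tuba1b B also binds other alpha tubulin messages was not tested, and a direction for Tuba1b as a gene is not given.

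For Tuba1c the mean log2 ratios were 0.54 ± 0.0923 (adjusted p = 0.0832) at Tuba1c A and 0.67 ± 0.119 (adjusted p = 0.0417) at Tuba1c B, with normalised log2 signals from 12.54 to 13.66 in the controls and from 13.20 to 14.26 in the SOX11-induced pups. The near-copy probes stayed within 0.16 of each other in both pairs, on either side of the adjusted threshold, and Tuba1c B missed it with median spot brightness (adjusted p = 0.067). Tuba4a, whose message encodes no final tyrosine, had 13.77 and 13.86 in pair 1 and 13.59 and 13.75 in pair 2. Its mean of 0.13 ± 0.0538 (adjusted p = 0.666) was the smallest in size of the 14. With median centring Tubb6, Tuba4a and Tuba1c A passed as well, at 1.03, 0.89 and 1.31, and Tuba1c B and Tuba1b B had 1.41 and 1.82.

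Isotype genes that lie side by side had unequal ratios within the same array, where the labelling of the pair is shared. A dye effect on a single probe is not shared in this way, and its part in the gaps was not tested. The log2 ratio of Tubb2b A exceeded that of Tubb2a, whose probe lies 52.9 kb away on chromosome 13, by 2.19 in pair 1 and 1.67 in pair 2. On chromosome 15, Tuba1a B exceeded Tuba1c A, 88.2 kb away, by 2.45 and 1.93. It exceeded the Tuba1b probes, the nearer of which lies 17.9 kb away, by 3.40 and 3.10 at Tuba1b A and by 1.69 and 1.66 at Tuba1b B. Each gap had the same direction in both pairs.

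By kind of subunit, the 7 beta probes had a median log2 ratio of 1.68 and 6 rose past the adjusted threshold. The 7 alpha probes had a median of 0.67 and 4 rose. Of all probes 2.9% rose, and 6.61% of those above background. High and low ratios occurred within either kind of subunit.

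**Figure D3:**
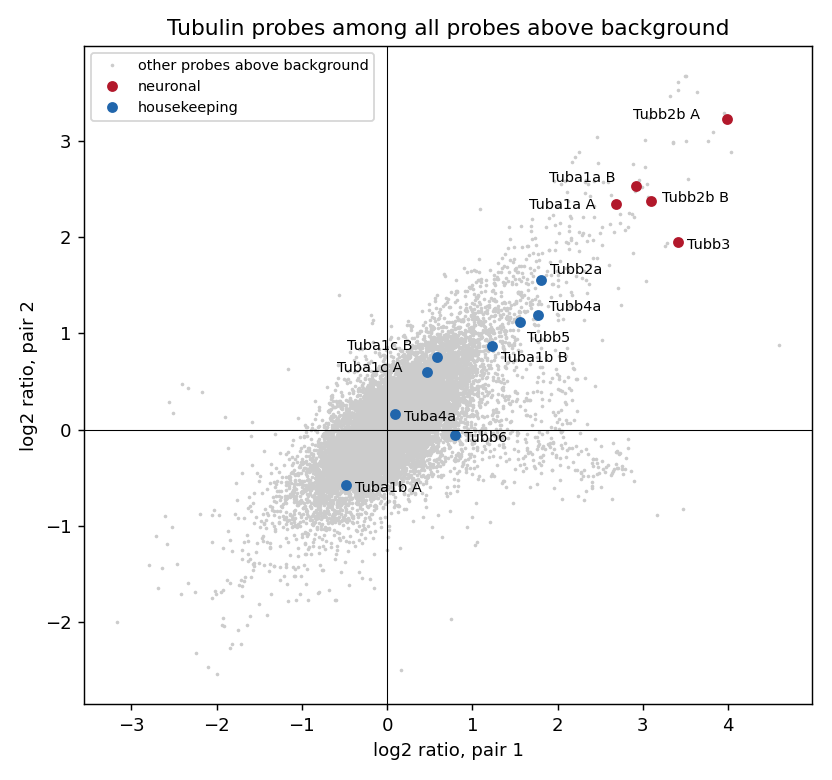
Log2 ratio in pair 1 (horizontal axis) against pair 2 (vertical axis) for the 21782 probes above background (grey), with neuronal tubulin probes in red and housekeeping ones in blue. The neuronal probes lie at the upper right end of the cloud, Tubb2b A at 3.99 and 3.23, and Tubb6 lies at 0.79 and -0.05 beside grey probes that were higher in pair 1 alone.

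The 250 bases before the start of Tubb3 are shown because SOX factors recognise short AT-rich motifs. Of the neuronal isotypes with a promoter entry, Tubb3 and Tuba1a, Tubb3 alone held any of the motifs searched. RefSeq windows of 300 bases (GRCm38.p6, 250 before and 50 after the start) were matched for 8 of the 10 genes, and ACAAAG and ACAAT were searched on both strands. Capitals mark ACAAT read on the opposite strand.
Tubb3, bases before the start within chr8:123411303-123411602 (plus strand): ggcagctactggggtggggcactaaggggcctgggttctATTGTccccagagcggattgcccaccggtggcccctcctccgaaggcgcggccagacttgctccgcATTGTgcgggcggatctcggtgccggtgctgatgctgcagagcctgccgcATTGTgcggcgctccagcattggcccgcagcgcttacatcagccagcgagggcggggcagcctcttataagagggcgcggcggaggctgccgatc

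The Tubb3 window held 3 matches, at -211, -145 and -95 from the start. The Tubb5 window held 1 ACAAT at -144 and 1 ACAAAG at -35, and the windows of Tuba1a, Tubb2a, Tubb4a, Tuba1b, Tuba1c and Tuba4a held none. Of 32851 RefSeq promoter windows 31.0% held ACAAT, 18.7% held ACAAAG and 42.9% held either, so such letters were common, and a match is a description and no site. For Tubb3 the study separately reports ChIP-qPCR binding of tagged SOX11 and SOX4 at a known site, in cultured keratinocytes. Where that site lies relative to the matches was not examined. Tubb2b and Tubb6 had no entry.

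Other genes of the microtubule system were read from lists by function, with the brightest probe of each gene. Of 10 other tubulin genes (gamma, delta, epsilon and further alpha and beta forms), 0 passed the adjusted threshold in either direction. Over all probes 2.9% rose and 1.35% fell, and 6.61% of those above background rose. The median log2 ratio of the 10 genes was 0.03. They included Tubb2c, listed on the array as Tubb4b, a broadly used beta isotype, at -0.19 ± 0.311 (adjusted p = 0.547). Its normalised log2 signals in the controls were 14.71 and 14.09. Tuba8, at -0.05 (adjusted p = 0.889), had 13.95 and 13.26 there, and 4 of the 10 genes were not above background anywhere. Among 21 measured chaperones and cofactors that fold tubulin or control its message, 1 rose, beside the same shares, and the list median was 0.11. It was Ttc5, which recognises nascent tubulin and starts the decay of its message (0.73 ± 0.171, adjusted p = 0.0323).

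Of 23 enzymes that modify tubulin, 4 rose and 0 fell, against 2.9% of all probes that rose and 6.61% of those above background, with a list median of 0.03. Atat1, the acetyltransferase of alpha tubulin, had normalised log2 signals of 6.60 and 8.18 in pair 1 and of 6.61 and 8.51 in pair 2 at its brightest probe. Its mean log2 ratio of 1.74 ± 0.225 (adjusted p = 0.000522) was called, while its other probes had 0.80 and 0.62. Svbp, listed as Ccdc23, is the partner of the vasohibins, which remove the final tyrosine of alpha tubulin. It rose by 1.03 ± 0.0664 (adjusted p = 0.00627) at its brightest probe, and its other probe had 0.60 and did not pass (adjusted p = 0.0575). Ttll1, a subunit of a glutamylating enzyme, and Agbl5, which removes branching glutamates, rose by 0.85 and 0.75.

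Of 14 destabilising and severing proteins 1 rose, beside 2.9% of all probes and 6.61% of those above background, and the list median was 0.02. It was Stmn1, which holds free tubulin dimers in a complex. Its brightest probe had normalised log2 signals of 12.68 and 14.38 in pair 1 and of 12.55 and 14.08 in pair 2. Both Stmn1 probes were called, at 1.62 ± 0.118 (adjusted p = 0.000624) and 2.07 ± 0.119 (adjusted p = 0.000174), with neither control overlapping either SOX11-induced pup.

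Microtubule-associated and plus-end proteins had a list median of 0.18, and 5 of 27 rose, beside the same 2.9% and 6.61%. Map1b, a protein of growing axons, rose by 1.78 ± 0.176 (adjusted p = 0.000439) at its brightest probe and had 0.69 at another probe (adjusted p = 0.0512). Arhgef2, an activator of RhoA that microtubules hold inactive, rose by 1.73 ± 0.0557 (adjusted p = 0.000426). Mapt, the axonal protein tau, Clasp1 and Clip2 rose by 0.75, 0.74 and 0.73. The other Mapt probes had 0.66, which passed (adjusted p = 0.0419), and 0.43, which did not (adjusted p = 0.148). In the nucleation and minus-end list, Camsap1 and Mzt1 rose by 0.68 and 0.64, 2 of 12 genes, and the list median was 0 to 2 decimals. The other Camsap1 probes had 0.71 and 0.13 and did not pass (adjusted p = 0.0657 and 0.66). In all 6 lists 0 genes fell, where 1.35% of all probes did, and 13 of the 107 measured genes rose, where 2.9% of all probes and 6.61% of those above background did. The lists count only the brightest probe of each gene, whereas the shares given beside them count every probe.

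**Figure D4:**
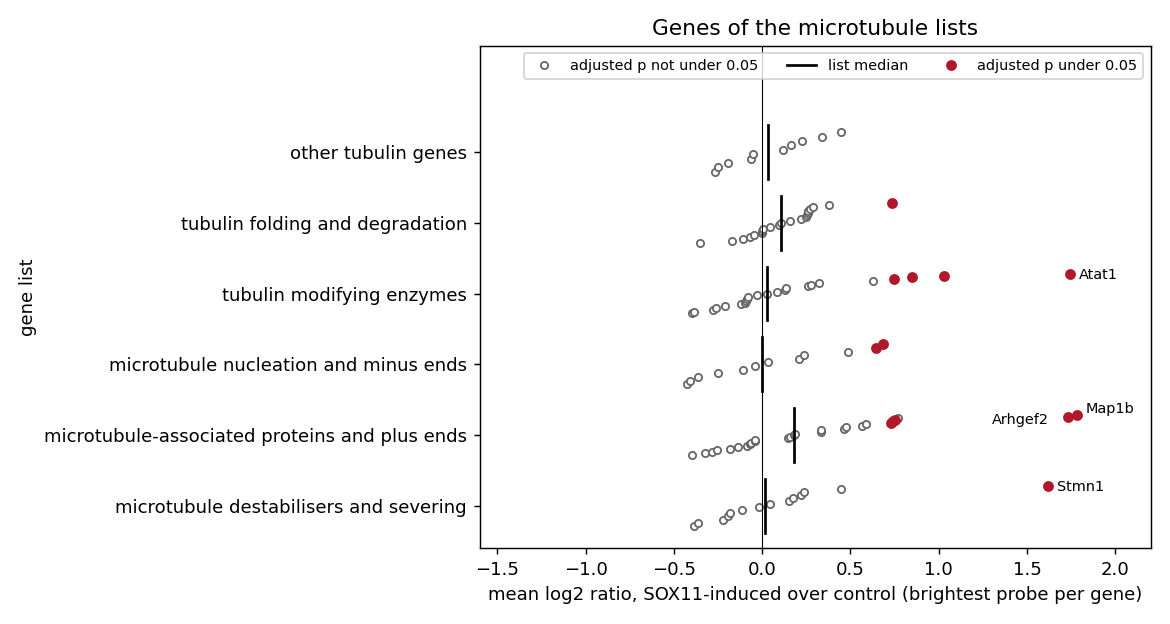
Mean log2 ratio of SOX11-induced over control (horizontal axis) at the brightest probe of each gene in 6 microtubule lists (rows); filled red points passed an adjusted p of 0.05, open points did not, and black bars are list medians. The highest median is 0.18, and Atat1, Map1b, Arhgef2 and Stmn1 are the named genes past 1.5.

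Markers of neurons were read beside the neuronal isotypes. Of 12 neuron markers 0 passed the adjusted threshold, where 2.9% of all probes rose and 1.35% fell. In any channel 8 were not above background, among them Rbfox3, Nefl, Nefm, Nefh, Prph and Gap43. Snap25 had a log2 ratio of 0.26 (adjusted p = 0.352) and Syt1 one of -0.39 (adjusted p = 0.184). The summed level of the 12 was 9.90 and 9.92 (log2) in the controls and 10.10 and 10.08 in the SOX11-induced pups, a log2 ratio of 0.20 and 0.16. Snap25 alone had 9.14 and 9.13 in the controls, so the sum stands mostly for that gene.

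Schwann cell markers had summed log2 ratios of 0.07 and 0.07, and fibroblast markers -0.07 and 0.25. Immune cell markers had -0.32 and -0.30, and Merkel cell markers 0.10 and 0.18, a sum made mostly of Chga. Among these 4 lists, Dcn, a collagen-binding proteoglycan of fibroblasts, was the 1 gene to pass. It fell by 0.79 on the log2 scale (adjusted p = 0.0276), where 1.35% of all probes fell. Fbn1 was also negative in both pairs but not above background. Col1a1, Col1a2 and Col3a1 had means of 0.37, 0.49 and 0.37 and did not pass. All 3 were negative in pair 1 and positive in pair 2. Vim had 10.69 and 9.86 (log2) in the controls, where the fibroblast sum was 11.44 and 11.07. Melanocyte markers had 0.43 in pair 1 and 0.01 in pair 2, with 0 of 8 past the threshold. Of the Merkel cell list, Krt18 had 1.63 and -0.12 and Krt8 had 0.77 and 0.05. Keratin-associated proteins of the hair shaft (Krtap names, a family chosen after its values were seen) had medians of 2.17 in pair 1 and -0.30 in pair 2 over 59 probes above background. The neuronal tubulin probes also had larger ratios in pair 1, and the part of these differences in theirs was not tested. Keratinocyte markers had summed log2 ratios of -0.03 and 0.14 and a list median of -0.27. Krt15, a basal keratin, fell by 1.03 (adjusted p = 0.0062) as the 1 of 8 that passed, where 1.35% of all probes fell. The sum combines opposite signs: Krt1 (0.36 and 0.89) and Krt10 (0.23 and 0.94) were positive in both pairs. Krt14 (-0.13 and -0.50), Krt5 (-0.25 and -0.62), Krt15, Trp63 and Dsg3 were negative in both, and Itga6 differed in sign.

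The genes whose pair of log2 ratios lay nearest to Tubb2b A, by Euclidean distance over 2 arrays among probes above background, were Syt5, a synaptotagmin of vesicle release, at a distance of 0.219, Itga6 at 0.320, Prom1 at 0.351, Cd1d1 at 0.654 and Sox4, a close relative of Sox11, at 0.666. The Itga6 probe was a second, dimmer probe with a mean log2 ratio of 3.38, whereas the brightest Itga6 probe had -0.01. Among those nearest to Tubb3 were Fscn1, which bundles actin, at 0.153, Tubb2b B at 0.531, Sema6c, a semaphorin, at 0.536, and Dbn1, an actin-binding protein of dendrites, at 0.555. With 2 arrays such distances describe a size and a gap between pairs and no more.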

How the data were processed

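Two-colour Agilent arrays of 2 littermate pairs were read, 1 array per pair (replicates 1 and 2 in the labels), each pair giving 1 paired log2 ratio per probe. Per the file headers, the scanner files contain intensity values that the authors deposited from Feature Extraction 10.7.3.1, in scanner units and without normalisation, with probe positions on mm9. A table of the whole series has log2 ratios that the authors deposited after normexp and loess, and was used as an alternative. Deposited log10 ratios of the scanner software were not used. There were 0 columns of other samples.

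Mean spot signals were corrected for the median local background by normexp (offset 16) and normalised by loess within each array, with limma 3.58.1 in R 4.3.3. Control spots and outlier spots (194 and 186) were then left out, and spots of a probe averaged. An intercept was fitted to the 2 log2 ratios of 55676 probes with eBayes, and p-values were adjusted by Benjamini-Hochberg over all of them. Calls required an adjusted p under 0.05 and a log2 ratio past 1.5. The study's removal of a dye effect by the Combat method was not repeated, so calls need not match those of the study. Errors are SDs of 2 arrays, whose number limits the precision. The fit was tested on simulated data.

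Every member probe was named; of the microtubule lists, called genes and then up to 3 per list past the adjusted p with the largest change. Members, groups and lists were chosen with earlier results of these data known. Alternatives were an offset of 50, median centring, median spot brightness, processed signals, the series table, dim probes left out and each array left out; choosing 1 probe per gene and leaving out Tubb4a or Tubb2a and Tubb4a were added after seeing the data. Sequences of probes are from the array files and promoters from RefSeq. A gene near Tubb3 in the comparison of ratios and the sequence of a probe are not reported here.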

Additional observations from a re-analysis of the deposited data

How the results depend on the processing

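The difference between the neuronal and housekeeping medians kept its direction in every alternative run, from 1.83 with an offset of 50 to 2.19 with Tubb2a and Tubb4a left out, and from 1.62 to 2.31 with 1 array left out in turn. The level of each group depended more on the scaling. Median centring in place of loess gave medians of 3.27 for neuronal and 1.41 for housekeeping probes, but it also moved the median of all probes above background from 0.04 and 0.03 to 0.49 and 0.57 in pairs 1 and 2; 9 tubulin probes were then called and 13 passed. The housekeeping median was 0.64 with median spot brightness and with the series table, 0.78 with processed signals, 0.54 with 1 probe per gene, 0.60 without Tubb4a and 0.54 without Tubb2a and Tubb4a. Leaving out an array gave 2.38 to 3.10 for neuronal and 0.76 to 0.79 for housekeeping probes, with no test, since 1 array is left. With processed signals 0 tubulin probes were called and 0 passed the adjusted p in limma; there 0 of all 55676 probes were called, although 892 had a log2 ratio past 1.5 at an unadjusted p under 0.05, and the prior variance carried 0.649 degrees of freedom against 8.14; the cause was not tested. With 1 probe per gene 6 of 10 passed. Calls were 6 with an offset of 50, median spot brightness, the series table or dim probes left out, and 12, 9, 9 and 10 probes passed. Tuba1b A reversed to 0.28 with median centring (adjusted p = 0.197) and passed as lower with an offset of 50 (-0.53, adjusted p = 0.0109). Tubb2b B ranged from 2.15 (offset of 50) to 4.33 (processed signals). Tubb6 reversed to -0.052 without replicate 1. Tuba1c B missed the adjusted p with median spot brightness (0.067) and with the series table (0.0664). No paired analysis beyond the values reported was possible because each array is already a littermate pair and its ratio the paired difference. The dyes were not swapped in the labels, 2 arrays set the precision, and signal over background limits Tubb2b B.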
